A study of Homo sapiens with 6 samples.

Results

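The deposited table of genes changed between the bladder carcinoma line T24 and its drug-resistant derivative T24-R holds 2462 genes, and 90 of them are the protein-coding genes of chromosome 9 described here. TMOD1 and genes whose names start with ZNF, ZBTB, SLC, ABC, COL or CYP were left out. The 90 members were ordered by gene start and split at 45 Mb into 34 on the short arm (9p) and 56 on the long arm (9q). The members were selected on measured values, because the table contains only genes that passed the authors' test of T24-R against T24. Every difference between these groups is therefore given as a description and without a test, and a gene that is absent from the table is called not listed rather than unchanged.

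T24 is an established human line from a urothelial carcinoma of the bladder, and it was the parental group. T24-R, named T24DDP in the labels, was raised from T24 by alternating exposure to rising amounts of cisplatin and gemcitabine with recovery in medium without drug, so both groups derive from T24 and T24-R is 1 resistant derivative of 1 line. Bulk RNA was sequenced in 3 libraries of each, numbered 1 to 3, and the labels do not say whether these came from separate cultures. The methods speak of independent biological replicates for the study's experiments in general and not of these libraries by name, so the spread between libraries may be in part technical. The label protocol names retinas, another library kit and a mouse genome build. The cell line label, the human gene identifiers and coordinates, and the methods describe human T24 cells instead.

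The values are read counts per gene divided by 1 size factor per library, and are called scaled counts. The size factors ran from 0.939 to 1.08 and the listed genes held 1170731 to 1411926 reads per library. T24-R replicate 3 stood apart from the other T24-R libraries: a chi-square comparison of read counts gave a median over genes of 2.82 with replicate 1 and 2.92 with replicate 2, but 0.732 between those 2 libraries and 0.852 to 1.29 among T24 libraries. Of the marker lists, 3 of 20 urothelial markers were listed (KRT19, GATA3 and PPARG, 1 higher and 2 lower, their summed scaled counts were 1392 to 1583 in T24 libraries and 399 to 478 in T24-R libraries). COL1A1 was the single fibroblast marker listed of 7 (22.4 to 47.4 scaled counts in T24 libraries and 142 to 212 in T24-R libraries), PECAM1 the single endothelial marker of 4 (0 to 4.26 and 21 to 32.3), and none of 5 leukocyte or 7 retina markers was listed. Their part in the values on chromosome 9 was not tested.

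Loss of all or part of chromosome 9 is among the most frequent lesions of urothelial carcinoma. The short arm carries the cell cycle inhibitors CDKN2A and CDKN2B and their neighbour MTAP, and the long arm carries further candidate tumor suppressors such as PTCH1 and TSC1. No DNA was measured here, so the RNA values do not give the copy number of any gene.

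Most short-arm members were lower and most long-arm members were higher in T24-R. On the short arm 32 of 34 members were lower (94.1%) and 2 were higher, whereas on the long arm 12 of 56 were lower (21.4%) and 44 were higher. In a limma fit of all 2462 listed genes, genes whose adjusted p-value was under 0.05 and whose log2 fold change exceeded 1 in size were called, which was 29.2% of the table as lower and 69.2% as higher. By that rule all 32 and both higher short-arm members were called, as were all 12 lower and 43 of the 44 higher long-arm members. The median log2 fold change, T24-R relative to T24, was -1.26 on the short arm (quartiles -1.50 and -1.09) and 2.03 on the long arm, compared with 1.41 over the whole table. For listed protein-coding genes on the other chromosomes, 29.0% were lower, which is near the share of the long arm and far from that of the short arm. In all 90 members the 3 T24 libraries and the 3 T24-R libraries did not overlap, as in 99.1% of all 2462 listed genes, so the separation does not set these members apart from the table. In bulk RNA, fewer cells expressing a gene and less RNA of that gene per cell cannot be told apart.

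The direction also held along stretches of consecutive members, which skip genes that are not listed. Between 0 and 30 Mb, 6 of 98 annotated genes were members, and between 65 and 100 Mb, 16 of 147. Of all 2462 listed genes, 1741 were higher in T24-R, and how often such runs occur on other chromosomes was not tested. From TUSC1 to NPR2 (10.13 Mb) 19 members in a row were lower, and from CLTA to ANKRD18A (2.43 Mb) another 9, with the higher gene CCIN alone between these runs. DOCK8 to ADAMTSL1 formed a run of 4 lower members over 18.7 Mb, followed by the higher gene ELAVL2. On the long arm the runs of higher members were FAM189A2 to GAS1 (7 members, 17.62 Mb), GABBR2 to PALM2 (5 members, 11.66 Mb), UGCG to LHX6 (9 members, 10.33 Mb) and ASS1 to ENTPD2 (13 members, 6.61 Mb), and no run of 4 or more lower members occurred there. The members nearest the split were ANKRD18A on the short arm (log2 fold change -1.17, SE 0.18) and FAM189A2 on the long arm (log2 fold change 1.73, SE 0.23). They lie 30.7 Mb apart, a gap with 26 annotated protein-coding genes and no member.

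The members of the short arm were not spread evenly. Of 210 annotated protein-coding genes of the arm under the same name rule, 16.2% were listed and 15.2% were listed as lower. Between 30 and 40 Mb, 27 genes were listed as lower, FAM95C among them, against 108 annotated genes (25%), and 1 as higher. Between 0 and 30 Mb 5 of 98 were lower (5.10%) and 1 was higher. On the long arm, 10.6% of 530 annotated genes were listed, 8.30% higher and 2.26% lower. Over all chromosomes the same rule gave 18935 annotated genes, of which 2.93% were listed as lower and 6.41% as higher. Among 345 windows of 5 Mb with at least 20 annotated genes, the median window had 0.901% lower. The window from 30 to 35 Mb of chromosome 9 (14 of 48 genes, 29.2%) ranked 2 and the window from 35 to 40 Mb (13 of 60, 21.7%) ranked 5, behind a window at 80 to 85 Mb of chromosome 17 with 32.4%. Chromosomes 3 and X also had many lower genes, with 89 of 139 (64.0%) and 104 of 133 (78.2%) of their listed protein-coding genes lower. FAM95C, in the window from 35 to 40 Mb, and PALM2, on the long arm, were not found in the annotation. They are counted as listed but not as annotated, so the shares that include them are slightly too high. The windows ranked next had 21.4% and 20.7% lower, so the rank of 5 may depend on FAM95C. These shares are descriptions of a table chosen by the same contrast.

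The lower short-arm members between 30 and 40 Mb fell by a narrow range of amounts. The 27 lower members there had log2 fold changes from -1.80 to -1.02 with a median of -1.26, so that T24-R retained 28.8% to 49.8% of the T24 level. Over the 32 lower members of the arm, the median retained share was 42.0% (quartiles 34.9% and 45.9%), and 1 of 32 (3.12%) lay beyond a log2 fold change of -2. Over all 721 lower genes of the table the median log2 fold change was -1.31, and 19.4% lay beyond -2. Quartiles were -1.46 and -1.11 over the 27 lower members between 30 and 40 Mb. They were no wider apart over the lower long-arm members (-1.33 and -1.07) and lower protein-coding genes of chromosome 3 (-1.39 and -1.07). Beyond -2 lay 8.99% of the latter and 17.3% of lower protein-coding genes of chromosome X. The upper end of these ranges is fixed by the selection at a change of 1. The lower members of the arm had a median level of 1341 scaled counts in T24 and, per kb of gene length, of 285 in T24 and 119 in T24-R, compared with 109 and 40.1 over all lower genes of the table, 136 and 53.8 over lower protein-coding genes of the other chromosomes, and 304 and 106 over those of chromosome X. Summed over the 32 genes, the T24 libraries held 63184, 58920 and 55910 scaled counts and the T24-R libraries 26694, 26128 and 23811.

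BAG1, DNAJA1, SMU1 and CHMP5 are consecutive members near 33 Mb, which does not make all of them adjacent genes. BAG1, a co-chaperone that releases nucleotide from HSP70 and binds BCL2, stood at 1646, 1503 and 1353 scaled counts in T24 and 501, 491 and 461 in T24-R (log2 fold change -1.63, SE 0.11). DNAJA1, an HSP40 co-chaperone, stood at 9921, 9025 and 8442 scaled counts in T24 and 4437, 4311 and 4611 in T24-R (log2 fold change -1.03, SE 0.11), and SMU1, a spliceosome protein encoded next to it, at 1896, 1799.9 and 1817 scaled counts in T24 and 843, 889 and 893 in T24-R (log2 fold change -1.07, SE 0.10). CHMP5, a subunit of the ESCRT-III complex that sorts membrane proteins into multivesicular bodies, stood at 1956, 1634 and 1640.5 scaled counts in T24 and 950.0, 898 and 685 in T24-R (log2 fold change -1.05, SE 0.15). Each of these genes was lower in every T24-R library than in any T24 library. The calls of DNAJA1 (-0.97) and CHMP5 (-0.97) were lost without T24 replicate 1, and that of CHMP5 also without T24-R replicate 3 (-0.91).

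BAG1 (chr9:33247820-33264720, minus strand) and CHMP5 (chr9:33264879-33282069, plus strand) are transcribed away from each other from starts 159 bases apart, so their promoter windows share bases. They are the closest pair of starts among the members, and both are lower. The RefSeq windows of both are shown (GRCh38.p14, from 250 bases before to 50 bases after each gene start, each on its own strand), with the GC box (GGGCGG or its complement) in capitals.
BAG1, chr9:33264659-33264958, minus strand: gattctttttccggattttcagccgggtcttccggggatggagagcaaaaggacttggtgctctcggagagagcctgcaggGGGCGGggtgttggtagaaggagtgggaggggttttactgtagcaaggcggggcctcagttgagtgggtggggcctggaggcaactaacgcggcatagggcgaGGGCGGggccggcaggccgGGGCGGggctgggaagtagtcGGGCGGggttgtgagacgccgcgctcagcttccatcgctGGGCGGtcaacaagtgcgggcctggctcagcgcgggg
CHMP5, chr9:33264799-33265098, plus strand: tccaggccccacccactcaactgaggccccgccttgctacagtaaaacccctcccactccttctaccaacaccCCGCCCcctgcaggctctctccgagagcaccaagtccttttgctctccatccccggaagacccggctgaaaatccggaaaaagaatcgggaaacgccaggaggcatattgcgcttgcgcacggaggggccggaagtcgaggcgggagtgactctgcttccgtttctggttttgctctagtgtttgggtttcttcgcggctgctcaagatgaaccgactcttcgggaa

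NUDT2, which cleaves the stress nucleotide diadenosine tetraphosphate, had the largest fall of the dense stretch, from 379, 318 and 259 scaled counts in T24 to 98.8, 109.9 and 66.6 in T24-R (log2 fold change -1.80, SE 0.22). Its levels in T24-R were 28.8% of those in T24 on average, and the groups did not overlap. Its window, the only one among the 3 short-arm promoters shown that lacks the GC box letters, holds CCAAT boxes (CCAAT or its complement, in capitals).
NUDT2, chr9:34329319-34329618, plus strand: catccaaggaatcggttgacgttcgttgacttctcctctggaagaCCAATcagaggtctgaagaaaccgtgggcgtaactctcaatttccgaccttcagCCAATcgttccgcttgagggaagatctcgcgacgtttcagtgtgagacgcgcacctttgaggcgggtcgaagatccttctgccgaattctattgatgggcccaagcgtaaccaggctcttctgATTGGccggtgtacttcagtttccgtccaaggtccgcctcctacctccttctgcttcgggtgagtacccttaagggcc

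NOL6, POLR1E, EXOSC3, PUM3 and RPP25L encode nucleolar proteins or proteins that make or process RNA. NOL6, a nucleolar protein of small ribosomal subunit assembly, stood at 3332, 3246 and 3315 scaled counts in T24 and 1359, 1471 and 1692 in T24-R (log2 fold change -1.13, SE 0.11). POLR1E, a subunit of RNA polymerase I, stood at 1805, 1801 and 1677 scaled counts in T24 and 632, 613 and 729.5 in T24-R (log2 fold change -1.42, SE 0.11). EXOSC3, a core subunit of the RNA exosome, stood at 1269.9, 1107 and 999 scaled counts in T24 and 389, 415 and 339.8 in T24-R (log2 fold change -1.56, SE 0.13). All 3 were lower in each T24-R library, and T24-R retained 45.7%, 37.4% and 33.9% of their T24 levels. PUM3, a nucleolar RNA-binding protein far from this stretch at 2.72 Mb, retained 46.5% (1461, 1352 and 1389.8 scaled counts in T24 and 708, 663 and 586 in T24-R). RPP25L, related to a subunit of RNase P, stood at 366, 319.7 and 283 scaled counts in T24 and 165, 166 and 93.0 in T24-R (log2 fold change -1.23, SE 0.23), and its call was lost without T24-R replicate 3 (-0.95).

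FANCG, a component of the Fanconi anemia core complex that acts in the repair of DNA crosslinks, stood at 1634, 1616 and 1529 scaled counts in T24 and 750.4, 784 and 559 in T24-R (log2 fold change -1.20, SE 0.14). It was lower in every T24-R library, at 43.8% of T24 on average. TUSC1, a small gene named as a tumor suppressor candidate, stood at 1539, 1419 and 1409 scaled counts in T24 and 584, 586 and 253 in T24-R (log2 fold change -1.72, SE 0.29). Its T24-R libraries were uneven, with replicate 3 far under the other two but all 3 below T24.

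CLTA, TPM2 and DCTN3 encode parts of vesicle coats, thin filaments and the dynein motor. CLTA, the clathrin light chain A, stood at 10846, 9800.4 and 9163 scaled counts in T24 and 4179, 3896 and 3131 in T24-R (log2 fold change -1.42, SE 0.14). TPM2, the beta chain of tropomyosin, stood at 10330.5, 9316 and 8123 scaled counts in T24 and 4753, 4555 and 3756 in T24-R (log2 fold change -1.09, SE 0.14). DCTN3, a dynactin subunit of the dynein motor, stood at 1476, 1355 and 1324 scaled counts in T24 and 786, 667 and 429 in T24-R (log2 fold change -1.18, SE 0.20). All 3 were lower in each T24-R library, and in all 3 the lowest library was T24-R replicate 3, without which TPM2 (-0.99) and DCTN3 (-0.93) were not called. UBAP2, which carries a ubiquitin-associated domain, behaved otherwise between libraries, with its highest T24-R value in replicate 3 (1996, 1889 and 2255 scaled counts in T24 and 863, 862 and 1183 in T24-R, log2 fold change -1.09, SE 0.15).

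Of the metabolic enzymes on the short arm, GNE, which starts sialic acid synthesis, stood at 1564, 1642 and 1661 scaled counts in T24 and 645, 640.1 and 758 in T24-R (log2 fold change -1.26, SE 0.11), and its gene lies within the span of CLTA on the other strand. GRHPR, a reductase of glyoxylate and hydroxypyruvate, stood at 3112, 3035 and 2697 scaled counts in T24 and 1375, 1325 and 1019 in T24-R (log2 fold change -1.26, SE 0.14). T24-R retained 42.0% and 42.1% of their T24 levels. Of the 16 annotated short-arm genes of the metabolic list, 4 were listed and all 4 were called lower, although DCTN3 among them is a dynactin subunit and no enzyme.

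NPR2, PDCD1LG2 and IL11RA are short-arm members of the receptor list, and each was called lower. NPR2, the receptor of C-type natriuretic peptide, stood at 58.5, 58.2 and 53.2 scaled counts in T24 and 25.9, 20.3 and 9.79 in T24-R (log2 fold change -1.65, SE 0.34). PDCD1LG2, the immune checkpoint ligand PD-L2 that the list counts with the receptors, stood at 152, 114 and 144 scaled counts in T24 and 41.9, 42.5 and 66.6 in T24-R (log2 fold change -1.45, SE 0.23). IL11RA, the receptor of interleukin-11, stood at 91.5, 108 and 101 scaled counts in T24 and 56.9, 54.5 and 37.2 in T24-R (log2 fold change -1.02, SE 0.21), and its call was lost without T24 replicate 2 (-0.96) or T24-R replicate 3 (-0.83). All 3 were lower in each T24-R library.

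The distal short arm had few members. DOCK8, which activates the GTPase CDC42, stood at 35.1, 26.6 and 32.9 scaled counts in T24 and 7.98, 8.31 and 12.7 in T24-R (log2 fold change -1.63, SE 0.29) and lies at the tip of the arm. With PDCD1LG2 it was 1 of 2 listed of 25 genes of the 9p24 list, both called lower. JAK2 and CD274 of that list were not listed. ADAMTSL1, a secreted relative of the ADAMTS proteases, stood at 2.13, 13.3 and 4.84 scaled counts in T24. These were 20 reads together against 0 in the T24-R libraries, so it was at least 7.02-fold lower, set against a floor of 3 reads over the group.

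Of the 43 genes of the 9p21 list, 3 were listed, ADAMTSL1 and TUSC1 lower and ELAVL2 higher, and CDKN2A, CDKN2B and MTAP were not listed. ELAVL2, a neuronal RNA-binding protein, stood at 4.26, 14.3 and 14.5 scaled counts in T24 and 45.9, 19.4 and 37.2 in T24-R (log2 fold change 1.62, SE 0.50), with no overlap. With TMM factors computed on the table ELAVL2 was 0.36 and not called, and without T24-R replicate 1 it was not called (1.37). CCIN, a sperm head protein, was the other higher member of the short arm, with 2 reads in T24 and 23 in T24-R, a ratio of 10.9 with an exact 95% interval of 2.70 to 95.6. CCIN stood at 1.06, 1.02 and 0 scaled counts in the T24 libraries and at 11.0, 7.39 and 3.92 in those of T24-R.

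The other lower members of the short arm were SMIM27, ANKRD18B, FAM219A, CCDC107, FBXO10, SHB, FAM95C and ANKRD18A, with log2 fold changes from -1.60 (CCDC107) to -1.02 (SMIM27). FBXO10, a substrate receptor of an SCF ubiquitin ligase, stood at 192, 185 and 178 scaled counts in T24 and 62.9, 70.2 and 62.7 in T24-R (log2 fold change -1.49, SE 0.14), and SHB, an SH2 adaptor protein, at 391, 359.6 and 382 scaled counts in T24 and 153, 186 and 157 in T24-R (log2 fold change -1.19, SE 0.13). All these members were lower in each T24-R library. FAM219A stood at 1178, 1390.3 and 1321 scaled counts in T24 and 565, 600.4 and 382 in T24-R (log2 fold change -1.35, SE 0.18), and CCDC107 at 262, 264 and 247 scaled counts in T24 and 99.8, 87.7 and 68.5 in T24-R (log2 fold change -1.60, SE 0.17). FAM95C stood at 29.8, 62.3 and 41.6 scaled counts in T24 and 21, 20.3 and 6.85 in T24-R (log2 fold change -1.50, SE 0.45). ANKRD18B stood at 302, 321 and 330.0 scaled counts in T24 and 78.8, 115 and 226 in T24-R (log2 fold change -1.32, SE 0.33), highest in replicate 3 among the T24-R libraries, with a call lost without T24-R replicate 1 (-0.98). ANKRD18A stood at 178, 173 and 176 scaled counts in T24 and 80.8, 94.2 and 60.7 in T24-R, and its call was lost without T24-R replicate 3 (-0.9997), like that of SMIM27 (-0.78). SMIM27 stood at 104, 114 and 89.0 scaled counts in T24 and 58.9, 59.1 and 35.3 in T24-R, and its call was also lost without T24 replicate 2 (-0.94).

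**Figure D1:**
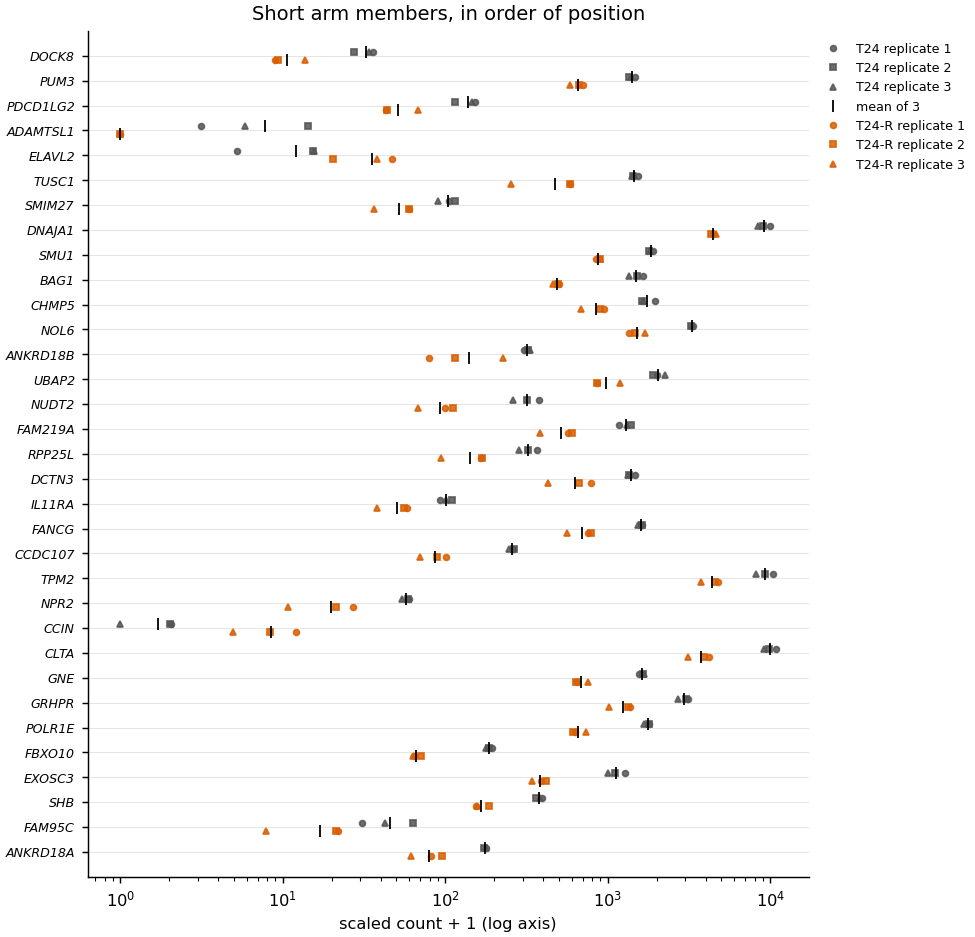
Scaled count plus 1 (log axis) of 33 of the 34 short-arm members in each library, in order of position, with 1 lower member not shown. Grey symbols are T24 replicates, orange symbols T24-R replicates, and vertical bars are means of 3. In all 33 rows the grey and orange symbols are separate, with orange to the left in 31 rows and to the right for ELAVL2 and CCIN.

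The 12 lower members of the long arm had a median log2 fold change of -1.15, with 11 of the 12 between -2 and 0 and a median of 2145 scaled counts in T24. They were scattered, and none stood in a run of 4. Summed over the 12, the T24 libraries held 57457, 50440 and 47940 scaled counts and the T24-R libraries 27434, 26032 and 18171.

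PTGS1, the cyclooxygenase COX-1 that makes the precursor of prostaglandins, had the lowest fitted log2 fold change of all 90 members. ADAMTSL1, with 0 reads in T24-R, has only a bound. PTGS1 stood at 45.8, 35.8 and 24.2 scaled counts in T24 and 2.00, 0.924 and 0.979 in T24-R (log2 fold change -3.96, SE 0.35), or 3.69% of T24. These were 103 reads together in T24 and 4 in T24-R, just above the floor of 3 reads. PTGES, which turns the cyclooxygenase product into prostaglandin E2, went the other way on the deposited scale, at 43.6, 48.0 and 34.8 scaled counts in T24 and 112, 95.1 and 96.0 in T24-R (log2 fold change 1.25, SE 0.19), but its value was -0.084 when TMM factors from the table were used. Neither enzyme's libraries overlapped between groups. The window of PTGS1 is shown for comparison with those of the most raised members, with the TATA box letters (TATAAA or complement) and the GC box in capitals.
PTGS1, chr9:122370283-122370582, plus strand: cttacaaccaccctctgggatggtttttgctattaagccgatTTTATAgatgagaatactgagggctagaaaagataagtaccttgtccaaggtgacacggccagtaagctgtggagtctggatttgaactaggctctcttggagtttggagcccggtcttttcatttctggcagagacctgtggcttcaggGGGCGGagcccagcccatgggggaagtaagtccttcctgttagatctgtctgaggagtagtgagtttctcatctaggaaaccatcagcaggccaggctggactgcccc

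TBC1D2, a GTPase-activating protein for RAB7, stood at 5186, 5252 and 5047 scaled counts in T24 and 1822, 1731 and 1740.1 in T24-R (log2 fold change -1.55, SE 0.10). NCS1, a calcium sensor that the receptor list holds although it is no receptor, stood at 3342, 3218 and 3194 scaled counts in T24 and 1397, 1253 and 1692 in T24-R (log2 fold change -1.18, SE 0.13). PBX3, a homeodomain partner of HOX proteins, stood at 1734, 1702 and 1729.5 scaled counts in T24 and 781, 793 and 919 in T24-R (log2 fold change -1.05, SE 0.11). These 3 and SHC3, a Shc adaptor of neuronal receptors (339.6, 313 and 369 scaled counts in T24 and 155, 161 and 169 in T24-R, log2 fold change -1.07, SE 0.12), were lower in each T24-R library, and all 4 were also called without T24-R replicate 3.

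Short genes made up much of the rest. RPL35, a ribosomal protein, stood at 26561, 21835 and 20805 scaled counts in T24 and 13839, 13007 and 7609 in T24-R (log2 fold change -1.05, SE 0.23). MRPL41, a mitochondrial ribosomal protein, stood at 2213, 1916 and 1718 scaled counts in T24 and 972, 983 and 439.7 in T24-R (log2 fold change -1.37, SE 0.29). TXN, the disulfide reductase thioredoxin, stood at 9533, 8051 and 7555 scaled counts in T24 and 4447, 4227 and 2947 in T24-R (log2 fold change -1.13, SE 0.18). In these 3 and in CTSL, a lysosomal protease (3453, 3266 and 2992 scaled counts in T24 and 1646, 1647 and 851 in T24-R, log2 fold change -1.29, SE 0.24), T24-R replicate 3 was the lowest library by a wide margin. SSNA1, a microtubule-binding protein, stood at 2396, 2177 and 2007 scaled counts in T24 and 1177, 1079 and 880.3 in T24-R (log2 fold change -1.08, SE 0.14), and ENDOG, the mitochondrial endonuclease G, at 547, 521 and 468 scaled counts in T24 and 267, 252 and 212 in T24-R (log2 fold change -1.07, SE 0.13). UAP1L1, related to an enzyme of UDP-sugar synthesis, stood at 2105, 2155 and 2032 scaled counts in T24 and 929, 897 and 712 in T24-R (log2 fold change -1.32, SE 0.13).

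The calls of CTSL (-0.97), TXN (-0.94), RPL35 (-0.77), ENDOG (-0.97), SSNA1 (-0.96) and MRPL41 (-0.99) were lost without T24-R replicate 3, so that 6 of the 12 remained called, all 12 staying below 0 with a median of -1.04. RPL35 was also not called without T24 replicate 1 (-0.94). On the short arm, 25 of the 32 lower members stayed called without this library, all 32 staying below 0 with a median of -1.23. Replicate 3 was the lowest T24-R library in 21 of the 34 short-arm and 28 of the 56 long-arm members. Among long-arm members shorter than 3000 bases it was lowest in 18 of 23, with a median ratio of 0.746 to the mean of replicates 1 and 2, and among the longer ones in 10 of 33, with a ratio of 0.979. On the short arm those ratios were 0.775 and 0.826. What set this library apart was not tested.

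The median level of the 44 higher members of the long arm was 9.61 scaled counts in T24 and 59.7 in T24-R, and per kb of gene length 2.31 and 15.4, with a median log2 fold change of 2.34. Over all higher genes of the table the medians were 16.1 and 63.6 scaled counts and 1.85. Of the 44, 28 had a log2 fold change above 2 and 14 above 3. In T24, 12 of the 56 long-arm members had at most 3 reads in the 3 libraries together, and for these the change is given as a bound or as a ratio of reads with an exact interval, which covers counting error only. With those members at their bound or ratio the median of the arm was 2.02. Summed over the 44, the libraries held 4610, 4740 and 4981 scaled counts in T24 and 15736, 15607 and 15356 in T24-R.

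**Figure D2:**
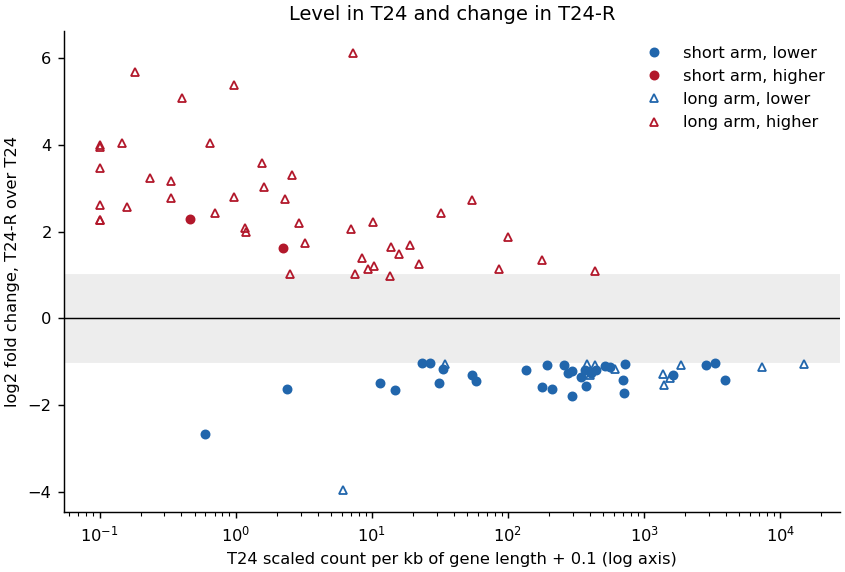
Log2 fold change (T24-R relative to T24) for the 90 members against the T24 scaled count per kb of gene length plus 0.1 (log axis). Circles are short-arm and triangles long-arm members, blue lower and red higher. Lower members sit mostly to the right, with short-arm medians of 285 per kb, and higher members mostly to the left, with a long-arm median of 2.31 per kb.

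LCN2, a secreted lipocalin that binds iron-carrying siderophores, had the highest fitted log2 fold change of all members. It stood at 9.58, 11.2 and 13.5 scaled counts in T24 and 941, 932 and 719.7 in T24-R (log2 fold change 6.12, SE 0.19, 75.4-fold). ROR2, a receptor tyrosine kinase for WNT5A, stood at 4.26, 6.13 and 4.84 scaled counts in T24 and 243, 240.1 and 265 in T24-R (log2 fold change 5.38, SE 0.22, 49.2-fold). Both were low in all T24 libraries and high in all T24-R libraries. The RefSeq windows of these members with large rises are shown, with the GC box in capitals in ROR2 and the CCAAT box in capitals in LCN2.
ROR2, chr9:91950179-91950478, minus strand: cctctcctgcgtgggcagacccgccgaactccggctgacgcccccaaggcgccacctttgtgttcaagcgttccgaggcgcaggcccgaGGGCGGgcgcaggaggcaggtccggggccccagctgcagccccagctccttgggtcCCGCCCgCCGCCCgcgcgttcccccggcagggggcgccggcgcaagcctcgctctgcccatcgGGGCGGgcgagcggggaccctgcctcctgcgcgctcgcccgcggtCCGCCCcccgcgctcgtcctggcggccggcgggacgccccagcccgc
LCN2, chr9:128149203-128149502, plus strand: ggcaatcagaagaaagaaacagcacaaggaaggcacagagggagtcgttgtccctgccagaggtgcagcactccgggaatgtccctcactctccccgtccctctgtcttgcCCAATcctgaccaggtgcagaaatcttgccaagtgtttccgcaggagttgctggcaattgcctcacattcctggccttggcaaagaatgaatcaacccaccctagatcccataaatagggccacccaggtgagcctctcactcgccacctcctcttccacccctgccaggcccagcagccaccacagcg

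A promoter window was found for 79 of the 90 members, 30 on the short and 49 on the long arm. Searched on both strands, the GC box occurred in 24 of the 30 (80%) and 34 of the 49 (69.4%), compared with 45% of all 35116 windows. The CCAAT box occurred in 10 (33.3%), 15 (30.6%) and 34.6%, and the TATA box in 2, 6 and 11.5%. The E-box CACGTG occurred in 4 short-arm windows (13.3%) and 1 long-arm window against 7.26% of all, the AP-1 site TGACTCA in 0 and 3 against 4.95%, and the heat shock letters GAANNTTC in 2 and 3 against 6.77%. Median GC content was 64.8% in lower short-arm, 69.7% in lower long-arm and 65.7% in higher long-arm members, compared with 58.7% over all windows. All 35116 windows outnumber the 18935 annotated protein-coding genes under the name rule, so they are not a like set to the members. Differences from them are therefore not read as a trait of chromosome 9. A match of letters is no evidence of binding.

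Ligands, secreted and matrix proteins were the largest listed group of the long arm, with 12 of 43 annotated genes, 11 called higher and CTSL lower. PRUNE2, counted in that list, is not a secreted protein, and GAS1 and FIBCD1, also counted, are membrane proteins. PCSK5, a convertase that cleaves proproteins in the secretory pathway, had 3 reads in T24 and 292 in T24-R, a ratio of 92.5 with a 95% interval of 31.3 to 451. Its T24-R libraries stood at 84.8, 104 and 92.0 scaled counts. TNC, the matrix protein tenascin-C, stood at 865, 932 and 1095 scaled counts in T24 and 3143, 3229 and 4321 in T24-R (log2 fold change 1.88, SE 0.15), and with TMM factors computed on the table it was 0.52 and not called. ADAMTS13, the protease of von Willebrand factor, stood at 11.7, 14.3 and 11.6 scaled counts in T24 and 103, 99.8 and 70.5 in T24-R (log2 fold change 2.75, SE 0.24). All T24-R libraries of these genes were above all T24 libraries.

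Of the tumor necrosis factor ligands, TNFSF8, the ligand of CD30, stood at 2.13, 6.13 and 4.84 scaled counts in T24 and 41.9, 38.8 and 41.1 in T24-R (log2 fold change 3.04, SE 0.35). TNFSF15, the ligand of DR3, had 0 reads in T24 and 35 in T24-R and was at least 11.1-fold higher, with 5.99, 8.31 and 19.6 scaled counts in T24-R. These neighbours lie at 114.9 and 114.8 Mb. TRAF1, a signal adaptor of such receptors at 120.9 Mb, stood at 91.5, 83.8 and 87.1 scaled counts in T24 and 221, 212 and 112 in T24-R with a log2 fold change of 0.98 (SE 0.25), the 1 member that was not called. TRAF1 was called without T24-R replicate 3 (1.30) and without T24 replicate 1 (1.01), and with TMM factors computed on the table it was -0.36.

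GAS1, a membrane-anchored hedgehog co-receptor named for growth arrest, was the only gene listed of 10 long-arm tumor suppressor candidates, and it was higher: 8.52, 1.02 and 11.6 scaled counts in T24 and 53.9, 64.7 and 63.7 in T24-R (log2 fold change 3.30, SE 0.62). PTCH1, TSC1 and NOTCH1 of that list were not listed. NRARP, a feedback regulator of NOTCH signaling, stood at 27.7, 22.5 and 32.9 scaled counts in T24 and 85.8, 98.8 and 57.8 in T24-R (log2 fold change 1.49, SE 0.26), with 0.17 and no call under TMM factors computed on the table. EGFL7, a secreted EGF-domain protein of vessel growth, stood at 233, 225 and 196 scaled counts in T24 and 568, 523 and 376 in T24-R (log2 fold change 1.15, SE 0.17), and it was -0.20 with TMM factors computed on the table. PAPPA, a protease of insulin-like growth factor binding proteins, had 0 reads in T24 and 17 in T24-R and was at least 5.39-fold higher, with 5.99, 7.39 and 2.94 scaled counts in T24-R.

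Of the receptors of the long arm, 4 of 29 were listed, ROR2, S1PR3 and GABBR2 higher and NCS1 lower. S1PR3, a receptor of sphingosine 1-phosphate, stood at 133, 132 and 152 scaled counts in T24 and 293, 317 and 363 in T24-R (log2 fold change 1.22, SE 0.14), and it was -0.13 with TMM factors computed on the table. GABBR2, a subunit of the GABA-B receptor, stood at 24.5, 15.3 and 15.5 scaled counts in T24 and 32.9, 46.2 and 35.3 in T24-R (log2 fold change 1.03, SE 0.28), and it was -0.27 with those factors. Leaving out T24 replicate 2 (0.92) or 3 (0.92) or T24-R replicate 2 (0.88) ended the call of GABBR2. SEMA4D, a membrane semaphorin, stood at 97.9, 93.0 and 105 scaled counts in T24 and 438, 449.8 and 358 in T24-R (log2 fold change 2.06, SE 0.14), with 0.71 and no call under TMM factors. FIBCD1, a membrane receptor of acetylated sugars, had 0 reads in T24 and 47 in T24-R and was at least 14.9-fold higher, with 14.0, 16.6 and 14.7 scaled counts in T24-R.

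Of 45 annotated long-arm genes in the metabolic list, 10 were listed, 7 called higher (PCSK5, UGCG, PTGES, ASS1, AK8, DBH and SARDH) and 3 lower (TXN, PTGS1 and UAP1L1). ASS1, which joins citrulline and aspartate in arginine synthesis, stood at 100.1, 100.1 and 92.9 scaled counts in T24 and 544, 508 and 539 in T24-R (log2 fold change 2.43, SE 0.12). UGCG, which makes glucosylceramide, stood at 1953, 1978 and 2119 scaled counts in T24 and 4415, 4261 and 4161 in T24-R (log2 fold change 1.09, SE 0.10), and it was -0.27 with TMM factors computed on the table. SARDH, the mitochondrial sarcosine dehydrogenase, stood at 99.0, 109 and 84.2 scaled counts in T24 and 322, 337 and 294 in T24-R (log2 fold change 1.70, SE 0.15), with 0.35 and no call under those factors. DBH, which makes noradrenaline from dopamine, lies next to SARDH and stood at 3.19, 0 and 6.77 scaled counts in T24 and 32.9, 17.5 and 16.6 in T24-R (log2 fold change 2.80, SE 0.69). AK8, an adenylate kinase, stood at 2.13, 2.04 and 4.84 scaled counts in T24 and 14.0, 17.5 and 11.8 in T24-R (log2 fold change 2.00, SE 0.36). Neither DBH (1.79) nor AK8 (0.86) was called under TMM factors.

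GCNT1, which makes the branch of core 2 O-glycans, and PRUNE2 overlap on opposite strands near 76.6 Mb, and both were higher. GCNT1 stood at 5.32, 3.06 and 6.77 scaled counts in T24 and 91.8, 88.7 and 107 in T24-R (log2 fold change 4.04, SE 0.30). PRUNE2 had 2 reads in T24 and 81 in T24-R, a ratio of 38.5 with a 95% interval of 10.3 to 323, and its T24-R libraries stood at 19.0, 27.7 and 31.3 scaled counts. Exons of other genes, GCNT1 among them, cover 9.0% of the exonic bases of PRUNE2, and whether the counting used the strand is not given in the sources used here.

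Of 34 annotated long-arm genes in the transcription factor list, 4 were listed, 3 higher and PBX3 lower, and none of 19 on the short arm was listed. LHX6, a LIM homeodomain factor, stood at 1.06, 1.02 and 1.94 scaled counts in T24 and 23.0, 14.8 and 22.5 in T24-R (log2 fold change 3.17, SE 0.32). LHX2, of the same family, had 0 reads in T24 and 13 in T24-R and was at least 4.12-fold higher, with 2.00, 3.69 and 6.85 scaled counts in T24-R. NR4A3, an orphan nuclear receptor, stood at 5.32, 9.19 and 5.81 scaled counts in T24 and 27.9, 24.9 and 44.1 in T24-R (log2 fold change 2.09, SE 0.33), with 0.84 and no call under TMM factors. LHX6 and LHX2 reached at most 23.0 scaled counts in any library, so their levels were low in both groups.

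The window from 135 to 140 Mb at the end of the long arm held 12 members, 9 of them higher. CLIC3, a chloride intracellular channel protein, had 1 read in T24 and 144 in T24-R, a ratio of 137 with a 95% interval of 24.2 to 5442, and stood at 60.9, 56.3 and 21.5 scaled counts in T24-R, lowest in replicate 3. ENTPD2 and ENTPD8, ectoenzymes that split extracellular nucleotides, had 1 and 34 reads (ratio 32.3, interval 5.42 to 1313) and 2 and 37 reads (ratio 17.6, interval 4.54 to 151). NPDC1, named for neural proliferation and differentiation control, stood at 507, 519 and 431 scaled counts in T24 and 1457, 1394 and 929 in T24-R (log2 fold change 1.35, SE 0.18), and with TMM factors computed on the table it was -0.00036. CYSRT1, a cysteine-rich tail protein, stood at 14.9, 15.3 and 23.2 scaled counts in T24 and 59.9, 66.5 and 45 in T24-R (log2 fold change 1.64, SE 0.27), with 0.33 and no call under those factors. CCDC187 had 0 and 45 reads and was at least 14.3-fold higher, with 13.0, 16.6 and 13.7 scaled counts in T24-R. ENTPD2 stood at 12, 11.1 and 9.79 and ENTPD8 at 12, 19.4 and 3.92 scaled counts in T24-R.

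Further higher members lay between 69.3 and 131.1 Mb. MAMDC2, a secreted MAM-domain proteoglycan, stood at 182, 219 and 227 scaled counts in T24 and 1444, 1500.0 and 1231 in T24-R (log2 fold change 2.73, SE 0.13). AIF1L, an actin-binding protein, stood at 6.39, 9.19 and 7.74 scaled counts in T24 and 102, 88.7 and 120.4 in T24-R (log2 fold change 3.58, SE 0.25). C5, a complement component, stood at 13.8, 17.4 and 24.2 scaled counts in T24 and 81.8, 75.7 and 106 in T24-R (log2 fold change 2.21, SE 0.26), with 0.90 and no call under TMM factors. RASEF, a RAB-type GTPase with EF hands, stood at 75.6, 61.3 and 65.8 scaled counts in T24 and 311, 296 and 352 in T24-R (log2 fold change 2.23, SE 0.15), with 0.89 and no call under TMM factors. All libraries of T24-R were above all of T24 in these 4.

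FAM189A2 stood at 21.3, 34.7 and 33.9 scaled counts in T24 and 108, 101 and 91.1 in T24-R (log2 fold change 1.73, SE 0.23), with 0.41 and no call under TMM factors, and CAVIN4, a caveolar protein of muscle, at 19.2, 23.5 and 23.2 scaled counts in T24 and 62.9, 58.2 and 54.8 in T24-R (log2 fold change 1.38, SE 0.21), with 0.07 and no call. PALM2 stood at 1.06, 3.06 and 4.84 scaled counts in T24 and 8.98, 12.9 and 52.9 in T24-R (log2 fold change 2.42, SE 0.65), where T24-R replicate 3 was the highest library, and its value under TMM factors was 1.30 without a call. FGD3, an activator of CDC42, had 1 read in T24 and 21 in T24-R (ratio 20, interval 3.21 to 825), and stood at 9.98, 4.62 and 5.88 scaled counts in T24-R. TEX48 had 0 and 13 reads and was at least 4.12-fold higher, with 2.00, 6.47 and 3.92 scaled counts in T24-R. TMEFF1, a membrane protein with follistatin domains, stood at 22.4, 27.6 and 22.3 scaled counts in T24 and 68.9, 66.5 and 34.3 in T24-R (log2 fold change 1.14, SE 0.30), and it was -0.17 with TMM factors and lost its call without T24-R replicate 1 (0.97) or replicate 2 (0.99). CCDC183 stood at 18.1, 17.4 and 30 scaled counts in T24 and 42.9, 49.9 and 39.2 in T24-R (log2 fold change 1.01, SE 0.28), and it was -0.29 with TMM factors and was not called when T24 replicate 1 (0.91) or 2 (0.88) or T24-R replicate 2 (0.92) was left out.

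**Figure D3:**
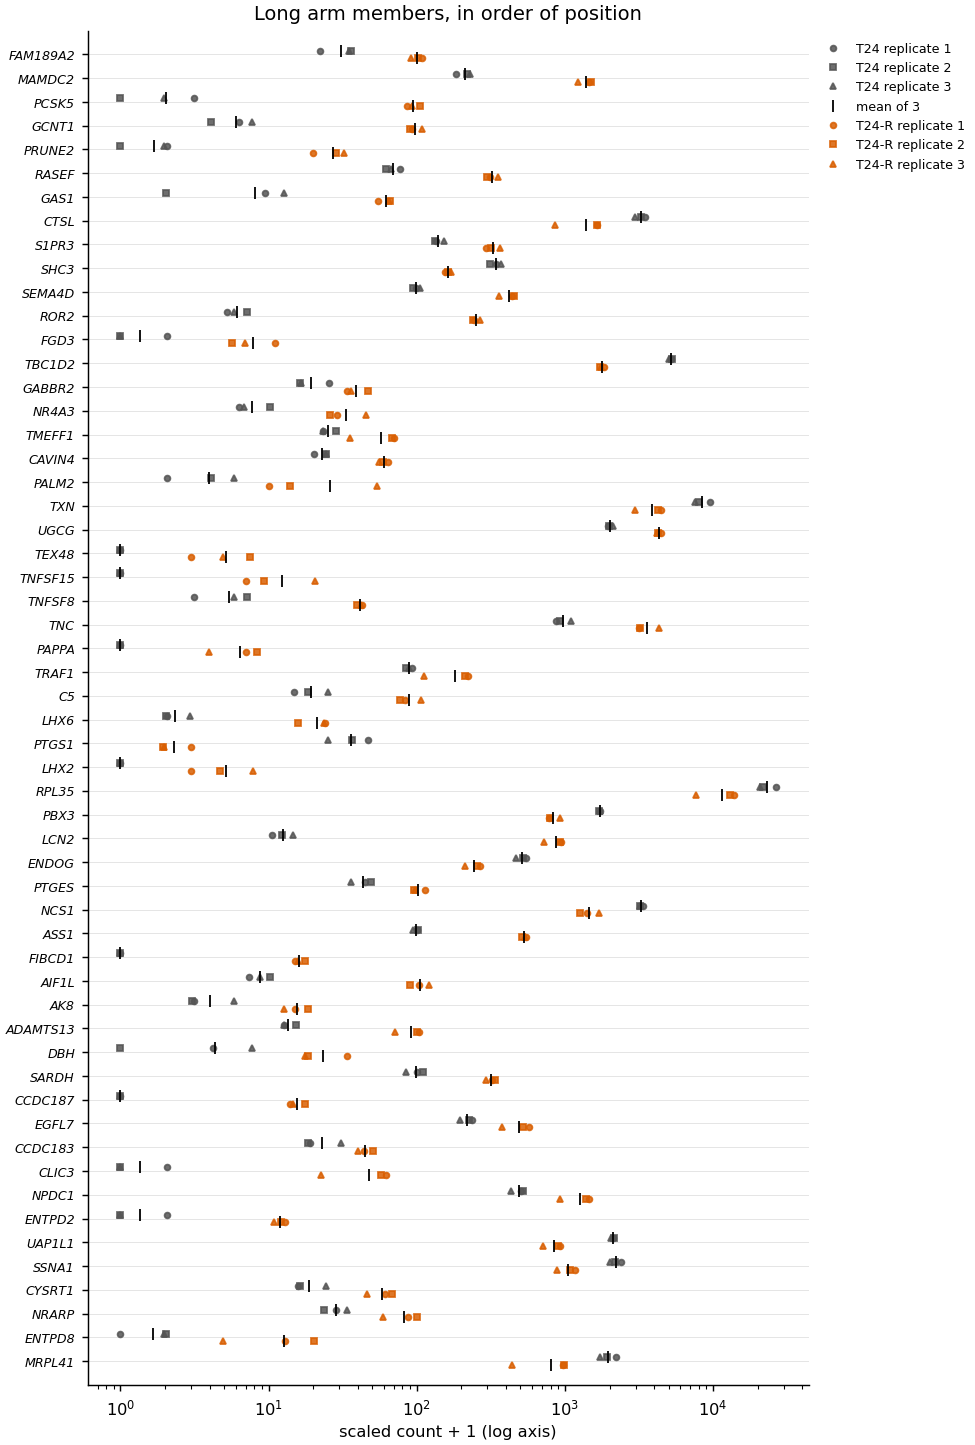
Scaled count plus 1 (log axis) of the 56 long-arm members in each library, in order of position, with symbols as for the short arm (grey T24, orange T24-R, vertical bars means of 3). Orange symbols lie to the right in 44 rows and to the left in 12, and in many of the 44 rows the grey symbols are near the axis minimum of 0 reads.

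Of 45 genes in the list of kinases, phosphatases and cell cycle genes, 5 were listed: ROR2 and AK8 were called higher, DOCK8 and SHC3 lower, and TRAF1 was not called, of which only ROR2 and AK8 are kinases. Of 44 genes in the list of cytoskeleton, adhesion and trafficking genes, 3 were listed: TPM2 and CCDC107 were called lower and NRARP higher, of which TPM2 is a cytoskeletal protein and NRARP a NOTCH regulator.

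The scale of the values bears on the calls of the higher members and on the size of change of all members. The retained shares given for lower members are those of the deposited scale. Which genes the authors' size factors were computed on is not given in the sources used here. TMM factors were computed on the listed genes, which were chosen as changed and are mostly higher. TMM takes most genes as unchanged, so on this table it moves the median toward 0 by construction. With TMM factors the median log2 fold change of the whole table dropped by 1.32, to 0.095. Values under these factors show how far a call depends on the scale and not which scale is right. With them 32 short-arm members were called lower and 1 higher, and 12 long-arm members were called lower and 22 higher, with arm medians of -2.61 and 0.78. S1PR3, GABBR2, TMEFF1, UGCG, TRAF1, PTGES, EGFL7, CCDC183 and NPDC1 were then below 0.

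Some members share exons or sequence with other genes, so that the count of each is uncertain. Exons of other genes cover 77.0% of the exonic bases of TMEFF1 (the readthrough gene MSANTD3-TMEFF1), 76.1% of CCDC107 (ARHGEF39), 73.6% of CCDC183 (mainly antisense and unnamed genes), 47.7% of FBXO10, 40.1% of ENDOG, 32.8% of IL11RA, 26.2% of SMIM27, 23.0% of SHB, 21.1% of PAPPA, 12.6% of MAMDC2 and 11.3% of CCDC187. ANKRD18B shares 21.7% of its stretches of 50 bases with other genes, led by ANKRD18A, which shares 19.7%. RASEF (9.98%), RPL35 (9.04%), SMU1 (7.14%) and ASS1 (5.61%) share stretches with other loci, in the last 3 with their pseudogenes. FAM95C and PALM2 were not found in the annotation used for this comparison.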

How the data were processed

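RNA of T24 and T24-R cells was sequenced in 3 libraries each. Per the methods, the authors trimmed reads with fastp, aligned them to GRCh38 with HISAT2, used featureCounts for the counting and DESeq2 for the comparison. The annotation version and the strand setting are not given in the sources used here. The signal values the authors deposited are gene counts that were each divided by the size factor of the library. The deposited log2 fold changes and p-values hold the authors' own comparison and were not used, other than that the authors limited the table by them. No column of values per library was left unused.

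All values (100%) were whole multiples of 1 step per library within a tolerance of 0.01 reads, so reads were recovered. As the values were scaled, limma 3.58.1 (lmFit, eBayes with trend, R 4.3.3) was fitted on log2(value + 1) of all 2462 genes, with Benjamini-Hochberg adjustment. A fold change on this scale understates the change of low genes. The fit was tested on simulated data of this comparison (2462 genes, 200 changed): of the 119 changed genes with a mean of 20 or more, 100% were recovered by limma, which made 3 false calls. Over all 200 changed genes, low ones included, it recovered 88.5%. The simulation changed 200 of 2462 genes, whereas 69.2% of the listed genes were called higher and 29.2% lower. Recovery was not split by size of change. How well members near the cut of 1 are recovered was not tested. Of the 32 lower short-arm members, 31 had a log2 fold change between -2 and 0. Alternatives were TMM factors, no variance trend, a minimum mean of 10, pseudocounts of 0.1 and 10, a block for replicate number, edgeR 4.0.16 and DESeq2 1.42.0 on recovered reads, and each library left out in turn. Deviations of same-numbered libraries correlated at 0.124, 0.024 and 0.181 over 2094 genes, and those of different-numbered libraries at -0.158 to 0.109. Each T24 library correlated most with the T24-R library of its own number. The methods name no pairing, so the main fit used no block, and whether the numbers mark a shared step was not tested.

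Members and gene lists were chosen with earlier results of these data known. Values per library are given for the 6 members with the largest and smallest change of each arm, members of the lists and members of runs of at least 4. SEMA4D, FGD3, RPL35, ENDOG, SSNA1, CYSRT1 and ENTPD8 meet none of these and were added, with values known, to account for all members reported. The values of 1 short-arm member are not reported here. A group with at most 3 reads in all its libraries together was taken to be at the floor. Floors and 95% intervals cover counting error only, since reads carry no molecular identifiers. Coordinates are those of the table (GRCh38). In GENCODE version 44, 88 members were found on chromosome 9, 87 with the same symbol and 29 with the same start and end. Promoters are from RefSeq (GRCh38.p14). Python 3.11.15, pandas 2.3.3, numpy 2.4.6, scipy 1.17.1 and matplotlib 3.10.9 were used.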

Additional observations from a re-analysis of the deposited data

How the results depend on the processing

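The 32 short-arm members called lower numbered 29 to 32 under the settings that kept all libraries, and the 12 lower long-arm members 12. TMM factors computed on the table, which move its median toward 0 by construction, gave arm medians of -2.61 and 0.78. They gave 1 short-arm member called higher in place of 2 and 22 higher long-arm members in place of 43. They put S1PR3 (-0.13), GABBR2 (-0.27), TMEFF1 (-0.17), UGCG (-0.27), TRAF1 (-0.36), PTGES (-0.084), EGFL7 (-0.20), CCDC183 (-0.29) and NPDC1 (-0.00036) below 0. Genes with a mean of at least 10 gave 1 higher short-arm member, 33 higher long-arm members and a long-arm median of 1.57, from fewer genes tested. A pseudocount of 10 gave 1, 34 and 1.14. It ended the calls of ADAMTSL1 (-0.69), SMIM27 (-0.90), IL11RA (-0.90), CCIN (0.69), FGD3 (0.69), GABBR2 (0.76), TMEFF1 (0.92), TEX48 (0.49), PAPPA (0.62), LHX2 (0.49), AK8 (0.91), CCDC183 (0.78) and ENTPD8 (0.96). A pseudocount of 0.1 gave a long-arm median of 2.15. On recovered reads that median was 2.139 with edgeR and 2.16 with DESeq2, and both called 44 higher long-arm members. The cause of these differences was not tested. With the replicate block the counts were 32 and 2 on the short arm and 12 and 43 on the long arm, with medians of -1.26 and 2.03, and no call changed. Leaving out 1 library at a time gave 25 to 32 lower and 1 to 2 higher short-arm members, 6 to 12 lower and 40 to 44 higher long-arm members, and medians of -1.33 to -1.19 and 1.82 to 2.06. The lowest counts of lower members, 25 and 6, came without T24-R replicate 3. Of the higher long-arm members, 12 had at most 3 reads in T24, so their folds are bounds or have wide counting intervals.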

Other observations

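A further 31 listed genes of chromosome 9 were outside the description, as non-coding genes or by their names. Of these, 11 lay on the short arm, 7 lower and 4 higher in T24-R with a median log2 fold change of -1.20, and 20 on the long arm, 4 lower and 16 higher with a median of 1.85.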
